A study of Homo sapiens with 34 samples.

Results

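Phosphorylation of the alpha subunit of translation initiation factor 2 (eIF2alpha) is set by 4 kinases and 2 phosphatase subunits, whose mRNA was followed here with that of eIF2alpha itself. The kinases were EIF2AK1 (also called HRI), EIF2AK2 (PKR), EIF2AK3 (PERK), and EIF2AK4 (GCN2). The phosphatase subunits were PPP1R15A (GADD34) and PPP1R15B (CReP), and the substrate gene was EIF2S1. The rule takes the genes by symbol, and the set was drawn up with earlier results of these data known. Each gene was found at 1 locus of the 28690 loci measured. All 7 were among the 14678 loci counted as expressed, which had a mean of at least 0.7 FPKM, fragments scaled to transcript length and library size, over the RNA sequencing (RNA-seq) libraries.

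The cells were U2OS, a human osteosarcoma line, stably carrying a luciferase reporter under the Bmal1 promoter. Both conditions carried this reporter and were synchronized with dexamethasone, a glucocorticoid, and they differed in 5 mM 6-aminonicotinamide (6AN), an inhibitor of the pentose phosphate pathway, against its solvent DMSO. RNA was sequenced at 12 time labels from 0 to 44 hr in each condition, with 1 library per time label, so that 24 libraries were used. The labels do not tie a time to the moment of drug addition, and the plots in the study start a day later than the labels, so a label of 0 hr need not be the start of the experiment. Chromatin immunoprecipitation sequencing (ChIP-seq) of the clock factors BMAL1 and CLOCK had 1 library per antibody and condition, made after 24 hr of treatment. Whether the reporter line is a single clone is not given in the sources used here. The comparison asks how cells facing this metabolic block differ in gene expression across the circadian time course.

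When eIF2alpha is phosphorylated, it blocks its own exchange factor eIF2B, so general protein synthesis slows while a few mRNAs such as ATF4 are translated more. Each kinase answers to a different input: EIF2AK1 to heme shortage and mitochondrial or oxidative stress, EIF2AK2 to double-stranded RNA, EIF2AK3 to unfolded proteins in the endoplasmic reticulum, and EIF2AK4 to uncharged tRNA. PPP1R15A and PPP1R15B guide protein phosphatase 1 to eIF2alpha, PPP1R15A as an inducible feedback target of the pathway and PPP1R15B as its more constant counterpart. The kinases are switched on at the protein level, so their mRNA is not a measure of their activity.

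Read totals were not in the tables used. From the steps between low FPKM values, the depth of a library relative to the median library ranged from 0.611 (4 hr) to 1.38 (32 hr) in DMSO and from 0.636 (20 hr) to 1.42 (32 hr) in 6AN. Of 6 markers of the mesenchymal and osteoblast lineage, 5 were expressed and COL1A2 was near 0, with a highest value of 0.106 FPKM. Among the 7 markers of leukocytes, epithelium, hepatocytes, and endothelium, EPCAM passed 0.7 FPKM on average, at a mean of 1.02 in DMSO and 0.734 in 6AN, and the other 6 stayed below it. Several lineage markers were lower in 6AN. In DMSO and 6AN respectively, the means were 128 and 33.9 FPKM for COL1A1, 323 and 129 for SPARC, and 347 and 197 for FN1. VIM had means of 917 and 747 FPKM, and RUNX2 was nearly equal at 14.0 and 13.9. The part of these markers in the results was not tested. In bulk samples of this kind, fewer cells of a type and less RNA per cell cannot be told apart.

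Both phosphatase subunits were higher in 6AN than in DMSO at every time label, and their values in the 2 conditions did not overlap. The substrate and the kinases EIF2AK1 and EIF2AK4 were lower at all 12 time labels by much smaller amounts, although EIF2AK1 was lower at 11 of 12 after centring each pair on the median of all loci and at 9 of 12 with upper-quartile scaling. EIF2AK2 was lower at 11 of 12 time labels and EIF2AK3 at 8 of 12. The mean differences of the substrate and the kinases stood between percentiles 22.8 (EIF2AK2) and 40.6 (EIF2AK3) of all expressed loci. Across all expressed loci, 12.6% were higher in 6AN at all 12 time labels, 19.8% were lower at all 12, 5.66% lay wholly above DMSO, and 9.93% lay wholly below. The counts of members were 2, 3, 2, and 0 of 7 for these 4 rules. The 2 tables were normalized separately, so levels set across them were described and not tested. All differences between conditions are means ± SD over 12 matched time labels, on the scale of log2(FPKM + 1), which understates the change of low genes.

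PPP1R15A, the inducible subunit, had the largest difference of the 7 genes. In DMSO, its lowest, median, and highest values were 27.7, 33.3, and 45.7 FPKM. In 6AN, these were 73.6, 81.3, and 119 FPKM. The lowest 6AN library was thus above the highest DMSO library. The mean difference was 1.30 ± 0.13 (SD, n = 12 time labels), a 2.47-fold increase on this scale. The value stood at percentile 99.3 of the mean differences of all expressed loci, whose median was -0.04 and whose SD over loci was 0.47. The difference stayed between 1.12 (12 hr) and 1.51 (4 hr).

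PPP1R15B, the constitutive subunit, had a smaller difference in the same direction. DMSO libraries ran from 16.1 to 21.3 FPKM with a median of 18.1, and 6AN libraries from 23.8 to 32.3 FPKM with a median of 26.3. The mean difference was 0.53 ± 0.16 (SD, n = 12 time labels), 1.44-fold on this scale and at percentile 93.2 of expressed loci. Its highest library was 6AN at 20 hr, where the difference was 0.96, and this was the shallowest 6AN library. Without the time labels 4 and 20 hr, which hold the shallowest library of each condition, the mean was 0.48 ± 0.09. PPP1R15A had a mean of 1.27 ± 0.11 without them.

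**Figure D1:**
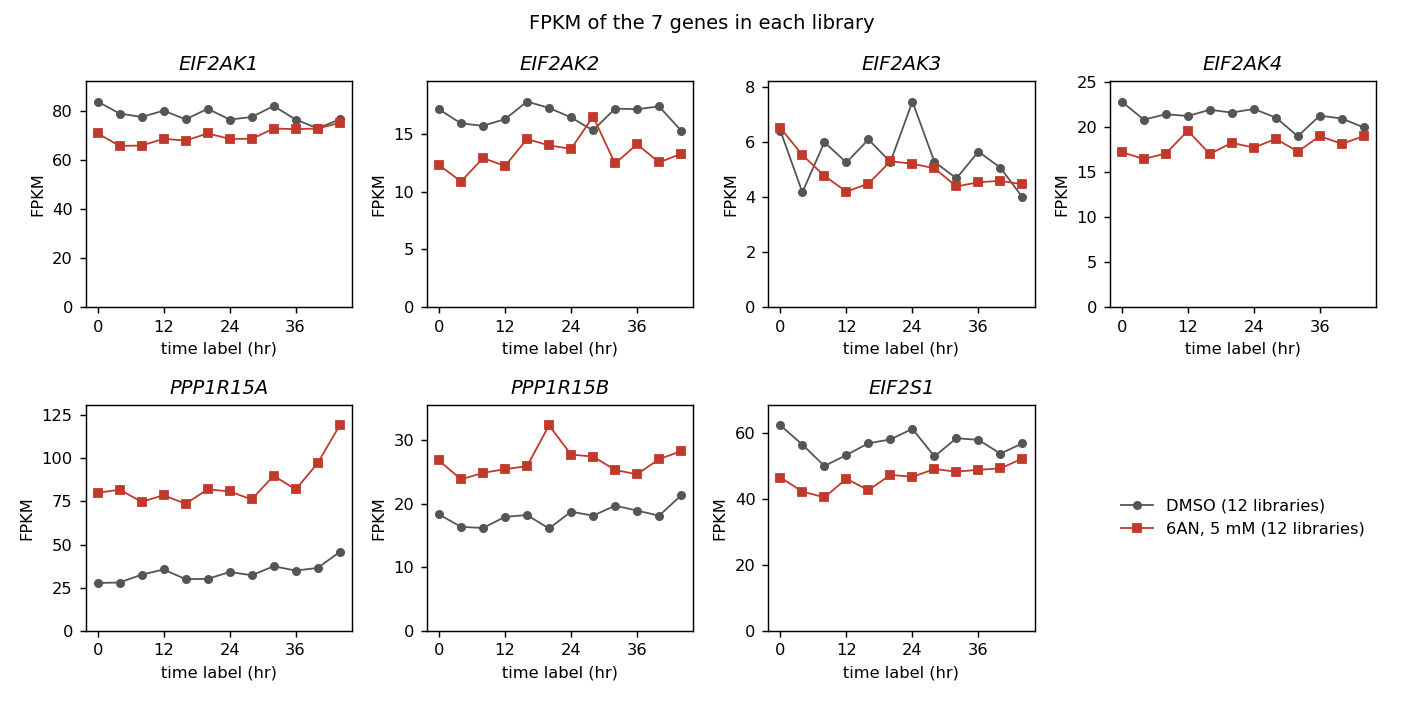
FPKM (vertical axis, from 0) of each of the 7 genes against the time label in hr, with 1 point per library, for DMSO (circles) and 6AN (squares). For PPP1R15A and PPP1R15B every 6AN library lies above every DMSO library, whereas the values of the other 5 genes overlap between conditions.

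The promoters of these 2 genes are shown because they were the members with non-overlapping values. Each is the 250 bases before the RefSeq start site (GRCh38.p14), written 5′ to 3′ on the strand of the gene. Capitals mark matches, on either strand, to any of 4 motifs: the E-box CACGTG, which BMAL1 and CLOCK bind; the C/EBP-ATF response element (CARE) TGATGNAA, which ATF4 binds; the cAMP response element (CRE) TGACGTCA; and the antioxidant response element (ARE) TGACNNNGC, which NRF2 binds. PPP1R15A lies at chr19:48872171-48872420 (+ strand) and PPP1R15B at chr1:204411818-204412067 (− strand).
PPP1R15A: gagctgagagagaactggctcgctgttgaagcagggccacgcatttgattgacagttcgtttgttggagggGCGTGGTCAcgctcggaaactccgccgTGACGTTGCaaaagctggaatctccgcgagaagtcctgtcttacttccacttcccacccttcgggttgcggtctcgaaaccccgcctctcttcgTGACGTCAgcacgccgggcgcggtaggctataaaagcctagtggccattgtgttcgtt
PPP1R15B: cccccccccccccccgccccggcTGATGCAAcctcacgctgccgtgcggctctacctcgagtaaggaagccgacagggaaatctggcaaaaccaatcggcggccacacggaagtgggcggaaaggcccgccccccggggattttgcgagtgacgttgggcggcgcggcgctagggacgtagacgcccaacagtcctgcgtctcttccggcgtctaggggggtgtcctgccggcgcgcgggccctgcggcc

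In PPP1R15A, the CRE letters were at -58 to -51 from the start site and matches to the ARE at -179 to -171 and -152 to -144. PPP1R15B held TGATGCAA, a CARE match, at -227 to -220. The matches did not overlap each other. Among 27305 promoters of the same length, 1.77% held a CRE, 11.03% an ARE, and 3.19% a CARE, and among the 10481 promoters of expressed genes these shares were 2.91%, 12.1%, and 1.48%. These are matches of letters only.

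EIF2S1, which encodes eIF2alpha, was lower in 6AN at all 12 time labels, although the ranges overlapped. Values ran from 50.01 to 62.4 FPKM with a median of 56.9 in DMSO and from 40.5 to 52.3 with a median of 47.0 in 6AN. The mean difference was -0.27 ± 0.12 (SD, n = 12 time labels). It was -0.34 ± 0.09 over the labels 0 to 20 hr and -0.21 ± 0.11 over 24 to 44 hr.

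Among the kinases, EIF2AK1 was the most abundant and had a narrow spread in each condition. Its values ran from 73.0 to 84.0 FPKM with a median of 77.7 in DMSO and from 65.9 to 75.3 with a median of 69.9 in 6AN. The mean difference was -0.16 ± 0.08 (SD, n = 12 time labels), and the 2 conditions were nearly equal at 40 hr, with 73.04 FPKM in DMSO and 72.97 in 6AN. Scaling each library to its upper quartile gave -0.10. The EIF2AK1 locus (chr7:6009251-6059229, hg38) also contained AIMP2, at means of 33.8 and 34.4 FPKM, and ANKRD61, at 3.42 and 3.51 FPKM, in DMSO and 6AN. Whether counting used strand is not given in the sources used here, so reads from stretches that these genes share cannot be told apart.

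EIF2AK4, the sensor of uncharged tRNA, ran from 18.9 to 22.8 FPKM with a median of 21.2 in DMSO and from 16.4 to 19.6 with a median of 17.9 in 6AN. Its mean difference was -0.23 ± 0.10 (SD, n = 12 time labels), with the ranges overlapping. EIF2AK2, the sensor of double-stranded RNA, ran from 15.3 to 17.8 FPKM with a median of 16.8 in DMSO and from 10.9 to 16.5 with a median of 13.1 in 6AN. Its mean difference was -0.30 ± 0.16, and 28 hr was the exception, with 16.5 FPKM in 6AN and 15.3 in DMSO.

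EIF2AK3, the sensor in the endoplasmic reticulum, was the lowest of the 7 genes and had the widest relative spread of the kinases, with a coefficient of variation of 17.8% in DMSO and 13.2% in 6AN. Its values ran from 3.99 to 7.47 FPKM with a median of 5.28 in DMSO and from 4.20 to 6.52 with a median of 4.68 in 6AN. The mean difference of -0.12 was smaller than its SD of 0.22. It was 0.34 at 4 hr, the shallowest DMSO library, and -0.45 at 24 hr. With upper-quartile scaling the mean was -0.06. An overlapping locus, LOC101928371, was low, at means of 0.171 FPKM in DMSO and 0.158 in 6AN.

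**Figure D2:**
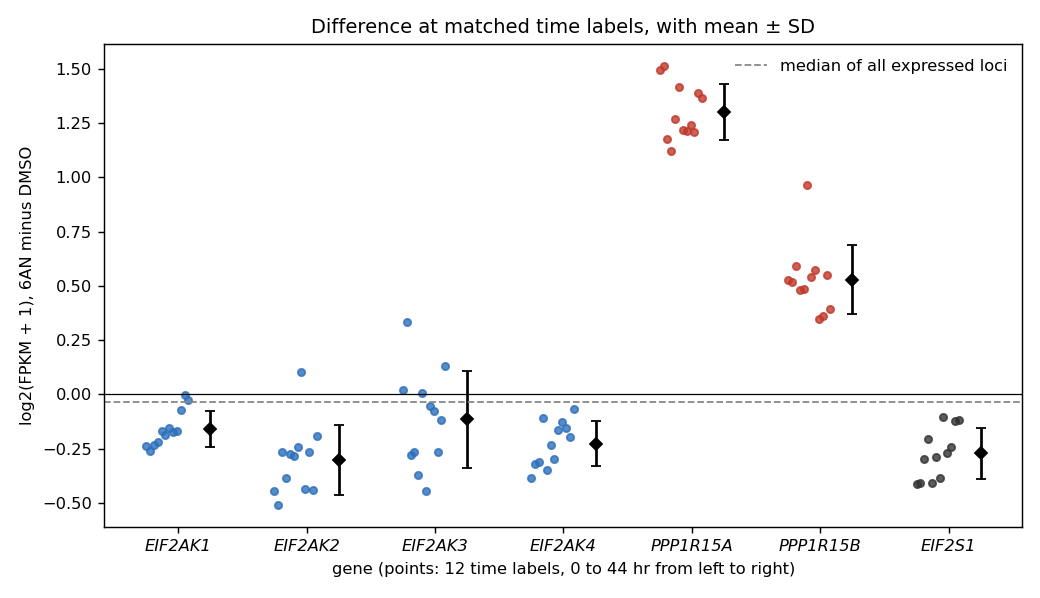
Difference in log2(FPKM + 1), 6AN minus DMSO, at each of the 12 time labels (points, 0 to 44 hr from left to right within a gene), with mean ± SD (diamonds and bars) and the median of all expressed loci (dashed line, -0.04). All points of PPP1R15A and PPP1R15B lie above 0, and all of EIF2AK1, EIF2AK4, and EIF2S1 below it, although for EIF2AK1 11 of 12 stay below after median centring and 9 of 12 with upper-quartile scaling.

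FPKM is per length, so levels were also ordered between genes within each table. In DMSO the order from high to low mean was EIF2AK1, EIF2S1, PPP1R15A, EIF2AK4, PPP1R15B, EIF2AK2, and EIF2AK3. Neighbours in this order did not overlap, except EIF2AK4 and PPP1R15B, where EIF2AK4 was higher in 10 of 12 libraries, and PPP1R15B and EIF2AK2, where PPP1R15B was higher in 11 of 12. In 6AN, PPP1R15A moved to the top at a mean of 84.7 ± 12.7 FPKM (SD, n = 12 libraries), against 70.2 ± 2.95 for EIF2AK1. It exceeded EIF2AK1 in all 12 of those libraries, although the ranges of the 2 genes overlapped. PPP1R15B moved above EIF2AK4, with no overlap, while EIF2AK4 and EIF2AK2 overlapped.

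Ratios within a library hold no scale of a table, and they were added after the data had been seen. The ratio of PPP1R15A to EIF2S1 was 0.599 ± 0.098 (SD, n = 12 libraries) in DMSO, ranging from 0.444 to 0.803. In 6AN it was 1.81 ± 0.19, ranging from 1.55 to 2.28. For PPP1R15B over EIF2S1, the ratio was 0.322 ± 0.027 in DMSO and 0.571 ± 0.048 in 6AN, again without overlap. Phosphatase subunit mRNA was therefore higher relative to substrate mRNA in every 6AN library than in any DMSO library. EIF2S1 itself had a mean difference of -0.27, which raises a ratio over it for any gene. The share of all expressed loci that separate by such a ratio was not computed.

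For the kinases, no such separation was seen. The ratio to EIF2S1 was 1.39 ± 0.08 and 1.51 ± 0.06 for EIF2AK1, 0.294 ± 0.018 and 0.286 ± 0.032 for EIF2AK2, 0.0964 ± 0.0162 and 0.106 ± 0.017 for EIF2AK3, and 0.375 ± 0.027 and 0.385 ± 0.021 for EIF2AK4, in DMSO and 6AN. The ranges overlapped for all 4 kinases, and 6AN was the higher at 10, 4, 6, and 9 of 12 time labels. The balance between the subunits also differed, with PPP1R15A over PPP1R15B at 1.85 ± 0.18 in DMSO and 3.19 ± 0.46 in 6AN, without overlap. PPP1R15A over EIF2AK1 was 0.431 ± 0.071 in DMSO and 1.20 ± 0.14 in 6AN, also without overlap. PPP1R15A already separated the conditions by its own level. The share of expressed loci that separate by these ratios was not computed either.

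**Figure D3:**
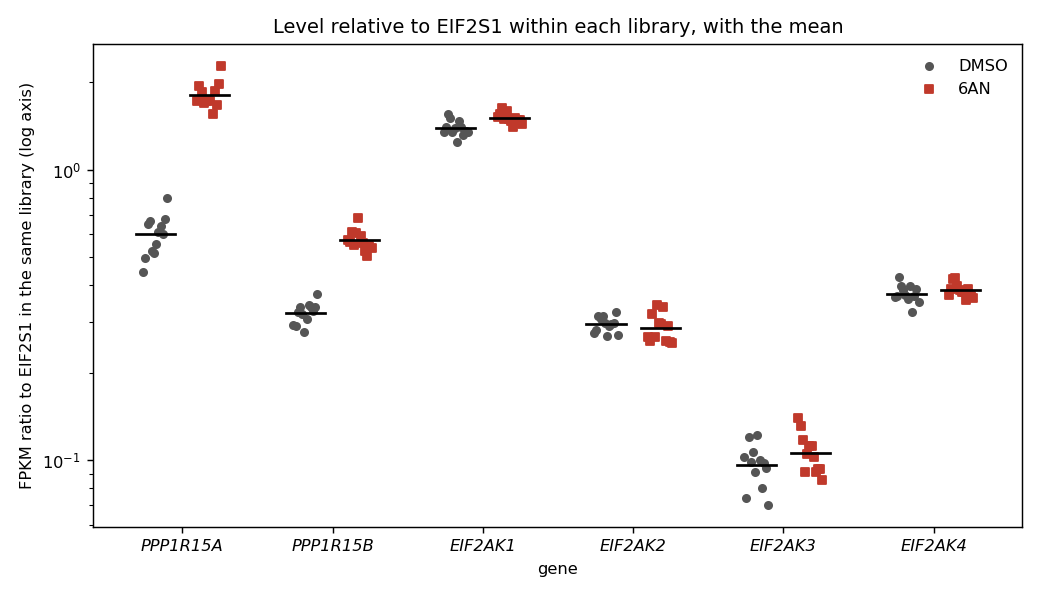
FPKM of each gene divided by that of EIF2S1 in the same library (log axis), for DMSO (circles) and 6AN (squares), with 1 point per library and a line at the mean. The 2 phosphatase subunits separate the conditions, and the 4 kinases do not.

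Change over the time series was tested within each table with limma, as the slope of log2(FPKM + 1) over the time label, adjusted over all expressed loci by the Benjamini-Hochberg method. PPP1R15A rose in both conditions, by 0.48 ± 0.11 (SE, n = 12 libraries) over 44 hr in DMSO (limma adjusted p = 0.0228) and by 0.40 ± 0.13 in 6AN (limma adjusted p = 0.0401). Its last library was the highest in each condition, at 45.7 and 119 FPKM. EIF2S1 rose in 6AN by 0.25 ± 0.06 (limma adjusted p = 0.0131), from 46.5 FPKM at 0 hr to 52.3 at 44 hr. EIF2AK1 rose in 6AN by 0.14 ± 0.04 (limma adjusted p = 0.0275). In DMSO, the change was -0.01 ± 0.08 for EIF2S1 (limma adjusted p = 0.987) and -0.09 ± 0.04 for EIF2AK1 (limma adjusted p = 0.271).

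Members past the threshold were thus 1 of 7 in DMSO and 3 of 7 in 6AN, all rising. Among all expressed loci, 2.96% rose and 2.95% fell in DMSO (5.91% in either direction), and 11.6% rose and 12.3% fell in 6AN (23.9% in either direction). The difference in slope between conditions was not tested. EIF2AK2, EIF2AK3, EIF2AK4, and PPP1R15B did not pass in either condition, with changes between -0.26 (EIF2AK3, 6AN) and 0.22 (PPP1R15B, DMSO). The rise of EIF2S1 was called in all 18 settings tried, with an adjusted p of at most 0.0498. The rise of PPP1R15A depended on single libraries: without 44 hr it was 0.36 in DMSO (limma adjusted p = 0.0835) and 0.22 in 6AN (limma adjusted p = 0.142), and the call was also lost without 0 or 4 hr in DMSO, and without 8, 12, 16, 20, 32, or 40 hr in 6AN. EIF2AK1 in 6AN was not called without 4, 8, 36, 40, or 44 hr (highest limma adjusted p = 0.0945).

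A 24 hr rhythm was tested with an umbrella rank permutation test built after RAIN. No member passed an adjusted p of 0.05 in either condition, and neither did any other expressed locus (0%). Harmonic regression at 24 hr likewise called 0 loci. On simulated rhythms of this sampling the umbrella test passed none at the adjusted threshold, so a lack of calls by it says nothing about rhythm in these genes. Harmonic regression passed 20 of 200 of them in each condition, so its lack of calls says little. With the unadjusted p limited to 0.01, the umbrella test passed 91 of the 200 in each condition. At an unadjusted p under 0.05, the umbrella test called 737 loci (5.02%) in DMSO and 624 (4.25%) in 6AN, and harmonic regression called 674 (4.59%) and 651 (4.44%). With the unadjusted p limited to 0.01, 0.831% of loci passed the umbrella test in DMSO and 0.797% in 6AN, and 0 of the 7 members in each. With RAIN itself at the same limit on p, the study reported more circadian transcripts in each condition than passed here. It also reported longer periods of clock genes under the inhibitor. Periods other than 24 hr were not tested here, and why the counts differ was not tested. The smallest p of a member in the umbrella test was that of PPP1R15B in 6AN (permutation p = 0.0313, adjusted p = 1). By harmonic regression, EIF2AK3 in 6AN had p = 0.0110 (adjusted p = 0.923), with a fitted peak to trough of 0.32 on the log2 scale. This gene also had its highest 6AN value at 0 hr, 6.52 FPKM.

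BMAL1 and CLOCK binding intervals, as called with HOMER and merged by the authors, lay within 10000 bp of 4 of the 7 loci, which compares with 31.4% of expressed loci. At EIF2AK2, a BMAL1 interval in DMSO (chr2:37156758-37156958, hg38) had its centre 122 bases downstream of the start site. PPP1R15B had a BMAL1 interval in 6AN (chr1:204411764-204411964) centred at -47 from its start site. EIF2S1 had a BMAL1 interval in both conditions (chr14:67359862-67360120), centred at -337. At EIF2AK1, a BMAL1 interval in DMSO (chr7:6059138-6059338) spanned the edge of higher coordinate of the RefSeq gene (chr7:6022247-6059175), and a second, in BMAL1 DMSO and CLOCK 6AN (chr7:6009286-6009546), lay outside that gene and inside AIMP2 (chr7:6009272-6023834).

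No interval lay within 10000 bp of PPP1R15A, EIF2AK3, or EIF2AK4. None of the members had an interval where BMAL1 and CLOCK met in the same condition, of which there were 163 in DMSO and 513 in 6AN among 4001. With 1 library per antibody and condition, an interval listed in DMSO and not in 6AN has no replicate check. The promoters of EIF2AK2 (chr2:37156981-37157230, − strand) and EIF2S1 (chr14:67360078-67360327, + strand) are shown because the intervals lie at or beside them, with capitals as above.
EIF2AK2: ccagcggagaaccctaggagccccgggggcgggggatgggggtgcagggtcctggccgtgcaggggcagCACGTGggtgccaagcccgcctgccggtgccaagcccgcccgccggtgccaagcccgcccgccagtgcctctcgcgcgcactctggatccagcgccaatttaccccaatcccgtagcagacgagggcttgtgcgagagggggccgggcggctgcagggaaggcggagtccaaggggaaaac
EIF2S1: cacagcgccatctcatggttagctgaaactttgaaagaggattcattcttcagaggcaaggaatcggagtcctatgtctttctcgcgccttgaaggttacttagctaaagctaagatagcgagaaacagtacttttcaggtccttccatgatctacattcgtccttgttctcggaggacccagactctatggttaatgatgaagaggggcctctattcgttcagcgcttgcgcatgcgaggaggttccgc

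EIF2AK2 held CACGTG at -181 to -176, a match found in 6.49% of all promoters and 8.81% of those of expressed genes. The interval of EIF2AK2 covered 0 of these 250 bases, so the letters lay outside it. The interval of PPP1R15B covered 147 of the 250 bases of its promoter and not its CARE match. The interval of EIF2S1 covered 43 bases, and none of the 4 motifs was in its window. The windows of EIF2AK3 and EIF2AK4 likewise held none of the 4, and that of EIF2AK3 (chr2:88627465-88627714) lies inside the longest RefSeq span of the gene (chr2:88556741-88628145), so it precedes one of its start sites only. Promoters were found for 6 of the 7 members, and none was used for EIF2AK1.

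The other genes of the pathway were described as lists, by the counts higher or lower at all 12 time labels. They were likewise chosen with earlier results known. Of 10 targets of the integrated stress response, the programme that follows eIF2alpha phosphorylation, 9 were higher in 6AN at all 12 time labels and 0 were lower at all 12, against 12.6% and 19.8% of all expressed loci. By the stricter rule, 5 of the 10 lay wholly above DMSO, against 5.66% of all expressed loci. The values of CHAC1, ASNS, SESN2, and HERPUD1 overlapped between conditions. The median difference of the 10 targets was 1.13, against -0.04 over all expressed loci. TRIB3, a pseudokinase that restrains the response, had the largest difference, 2.003 ± 0.48 (SD, n = 12 time labels), followed by DDIT3 (CHOP), which activates PPP1R15A transcription, at 1.81 ± 0.42. The rest were NUPR1 at 1.30 ± 0.28, CHAC1, which degrades glutathione, at 1.21 ± 0.68, asparagine synthetase ASNS at 1.20 ± 0.38, ATF3 at 1.06 ± 0.20, ATF4 at 0.93 ± 0.14, SESN2 at 0.58 ± 0.24, and HERPUD1 at 0.32 ± 0.24. DDIT4, an mTORC1 inhibitor, was the exception at -0.07 ± 0.35 and higher at 5 of 12 time labels.

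**Figure D4:**
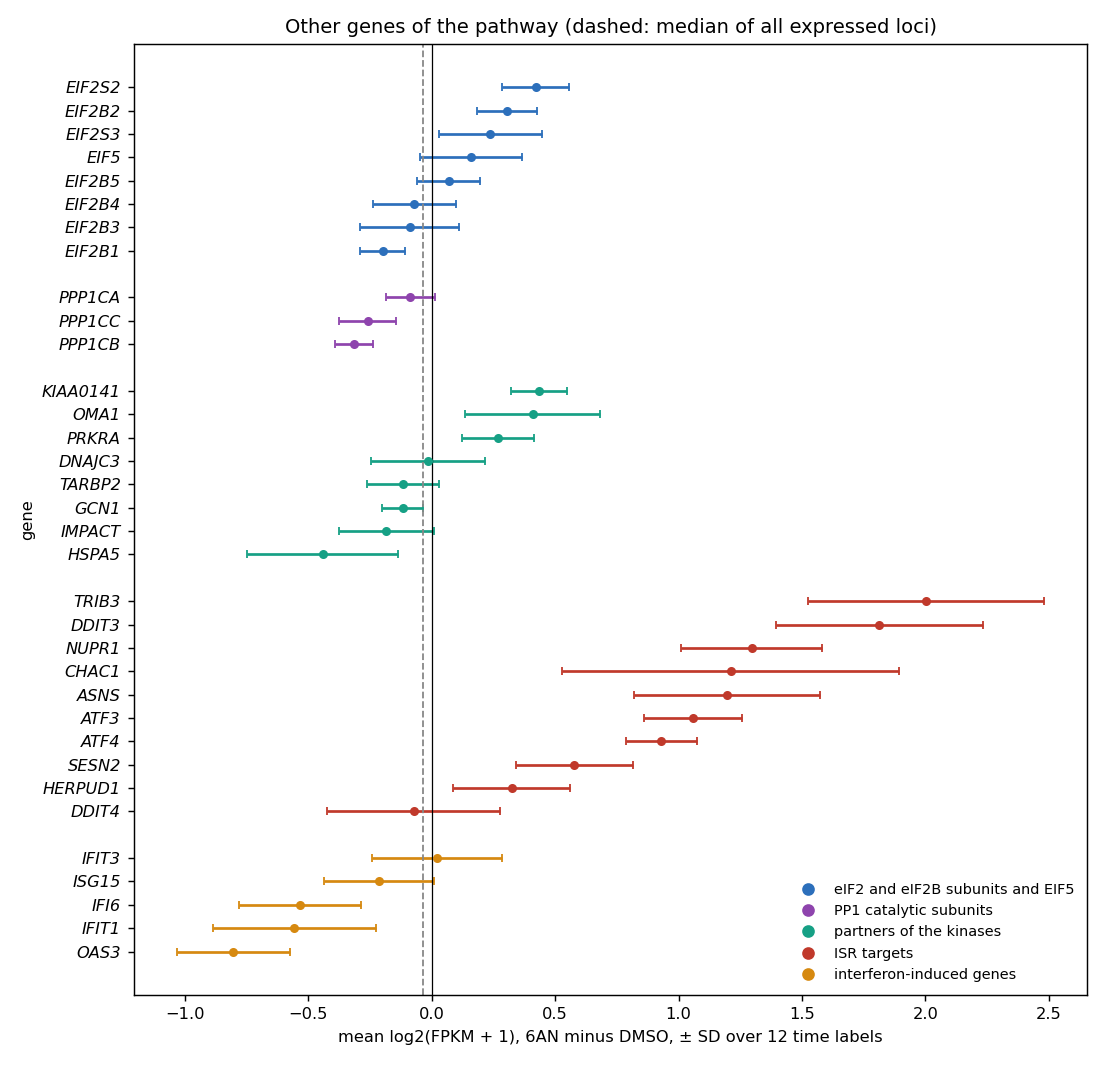
Mean difference in log2(FPKM + 1), 6AN minus DMSO, ± SD over 12 time labels (horizontal axis) for the expressed genes of the 5 lists, with the median of all expressed loci dashed. Stress response targets reach 2.003 (TRIB3), and the genes of the other lists lie between -0.80 (OAS3) and 0.44 (KIAA0141).

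The other parts of the eIF2 machinery differed in direction among themselves. Of 8 genes for the other eIF2 subunits, the exchange factor eIF2B, and EIF5, 2 were higher at all 12 time labels and 1 was lower at all 12, against 12.6% and 19.8% of all expressed loci, with a median difference of 0.11. EIF2S2, the beta subunit of eIF2, was at 0.42 ± 0.14 (SD, n = 12 time labels) and EIF2B2 at 0.31 ± 0.12. EIF2B1, the alpha subunit of eIF2B, which senses phosphorylated eIF2, was at -0.20 ± 0.09, and after centring on the median of all loci it was no longer lower at every time label. The catalytic subunits of protein phosphatase 1, which PPP1R15A and PPP1R15B recruit, had 0 of 3 higher and 2 of 3 lower at all 12 time labels, PPP1CB at -0.32 ± 0.08 and PPP1CC at -0.26 ± 0.12, and a median of -0.26. The same shares of all loci, 12.6% and 19.8%, apply.

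Of 8 partners of the kinases, 3 were higher at all 12 time labels and 0 lower, against 12.6% and 19.8% of all expressed loci, with a median of -0.07. These were KIAA0141, an older symbol of DELE1, which relays mitochondrial stress to EIF2AK1, at 0.44 ± 0.11 (SD, n = 12 time labels), the protease OMA1, which acts on DELE1, at 0.41 ± 0.27, and PRKRA, a protein activator of EIF2AK2, at 0.27 ± 0.15. HSPA5 (BiP), the chaperone that holds EIF2AK3 inactive, was at -0.44 ± 0.31 and lower at 10 of 12 time labels.

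Interferon induces EIF2AK2, and of 9 interferon-induced genes 5 were expressed. Of these 5, 0 were higher and 2 were lower at all 12 time labels, with a median of -0.53. OAS3 was at -0.80 ± 0.23 (SD, n = 12 time labels), with means of 1.57 FPKM in DMSO and 0.478 in 6AN. Its 6AN mean was below the limit of 0.7 FPKM, so OAS3 counted as expressed through its DMSO libraries. IFI6 was at -0.53 ± 0.25. Among all expressed loci, 12.6% were higher and 19.8% were lower at all 12, as given above.

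Pearson's r of log2(FPKM + 1), centred within each condition, was computed between each member and all expressed loci over 24 libraries. These points share libraries and depth, and r is a description with no test. PPP1R15A was most like MNT (r = 0.85), PRPF40B (0.84), and GARS (0.82). EIF2S1 was most like G3BP1, SAR1A, and RAB3GAP1 (0.83 each), EIF2AK1 like EIF6 (0.81), RRP36 (0.78), and STRAP (0.77), and EIF2AK4 like ELOVL5 (0.86), IL18 (0.79), and AHSA1 (0.78). EIF2AK3 was most like DCBLD2 (0.79), ZCCHC2 (0.78), and MTDH (0.74), PPP1R15B like WIPF1, SLC25A35 (0.76 each), and COG2 (0.73), and EIF2AK2 like PPIP5K2 (0.73), SLC12A2 (0.72), and SRP19 (0.71).

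Between members, over the 12 libraries of a condition, EIF2AK1 and EIF2S1 had r = 0.40 in DMSO and 0.88 in 6AN. PPP1R15A and PPP1R15B had r = 0.74 in DMSO and 0.25 in 6AN, and PPP1R15A and EIF2S1 had -0.16 and 0.69. For EIF2AK3 and EIF2AK4 it was 0.75 and -0.46. Only some pairs are given, and others ranged from a small to a large difference. EIF2AK1 and EIF2AK2 had r = 0.09 and 0.10, PPP1R15B and EIF2S1 0.35 and 0.46, and EIF2AK4 and PPP1R15A -0.66 and 0.31. For EIF2AK1 and PPP1R15A, r was -0.38 in DMSO and 0.78 in 6AN. EIF2AK1, EIF2S1, and PPP1R15A all rose over the series in 6AN, as given above, and whether these correlations differ between conditions was not tested.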

How the data were processed

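FPKM values per locus came in a deposited table for each condition, each normalized over its own libraries by the authors. The submitters' notes name Bowtie, TopHat, and Cufflinks for these and Bowtie2 and HOMER for ChIP-seq, on hg38. RNA was extracted in triplicate, and whether extracts were pooled is not given in the sources used here. For ChIP-seq, the deposited merged peak list gave each interval's HOMER score and the libraries that held it. The tables of loci and of shared-site signal gave no other value used here, and 0 per-sample columns were left out.

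Groups came from the labels. Expressed loci had a mean of at least 0.7 FPKM, and 1 was added before log2. Conditions were compared at matched time labels, as a description. Within each table, limma 3.58.1 (R 4.3.3, eBayes with trend) tested the slope, and an umbrella test with 1000000 random orders and 18 shapes tested rhythm. The rest used Python 3.11.15, NumPy 2.4.6, pandas 2.3.3, SciPy 1.17.1, and matplotlib 3.10.9. Scripts for tests were checked on simulated data. There the trend test passed 65 of 200 rises of 4 SD in DMSO and 54 of 200 in 6AN at the adjusted threshold. Starts of loci were 1 below the RefSeq start for 6584 of 25113 genes and equal for 619, so 1 was added to them. Samples at different time labels share a condition but are not replicates of a time, so SDs and p-values cover the spread over the series.

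The members and lists were chosen with earlier results of these data known. The genes named were the 7 members, list genes higher or lower at all 12 time labels or otherwise those of largest difference, and the 3 loci most like each member. DDIT4 and HSPA5 were named after their values were seen, and AIMP2, ANKRD61, and LOC101928371 because they overlap a member. Alternatives covered pseudocounts, scaling, filters, other tests, parts of the series, and leaving out each time label. A gene of the interferon-induced list is not reported here and was left out of its counts.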

Additional observations from a re-analysis of the deposited data

How the results depend on the processing

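The mean difference of every member kept its direction in 133 of 133 comparisons with an alternative. The alternatives were pseudocounts, median centring, upper-quartile scaling, either part of the series, each time label left out, and the 2 shallowest libraries left out. Each mean also stayed within 1 SD. Leaving out these labels or taking either part could not move a mean by 1 SD, so that rule tests only pseudocounts and scaling. For members higher or lower at all 12 time labels, such subsets and the pseudocounts could not reverse the direction either. Only median centring and upper-quartile scaling could do so. The counts of members higher or lower at all time labels stayed within 1.5 times in 38 of 38. Median centring and upper-quartile scaling each left 2 members lower at all time labels in place of 3, EIF2AK1 being lost (differences of 0.03 and 0.05 at 40 hr). With each time label left out, the members higher at all remaining labels numbered 2 and those lower 3 to 4. Leaving out a label cannot lower these counts. With no filter on low FPKM, 3.73% of loci lay wholly above DMSO and 6.58% wholly below, since more loci were counted. Centring left 0 eIF2 and eIF2B genes lower at all time labels. The trend tests were less stable. By Spearman's rho against random orders, 0 members passed in DMSO and 1 in 6AN, EIF2S1, while PPP1R15A in 6AN had an adjusted p = 0.0891 (rho = 0.66) and in DMSO 0.0618 (rho = 0.79). Of all 14678 expressed loci, 632 passed this test in DMSO and 2904 in 6AN. Leaving out each time label gave 0 to 1 members in DMSO and 1 to 3 in 6AN. The loci that passed then numbered 535 (without 0 hr) to 876 in DMSO and 2443 to 3471 in 6AN. With no filter, PPP1R15A in 6AN had a limma adjusted p = 0.0632. EIF2AK4 in 6AN was called without 12 hr (limma adjusted p = 0.0439). For rhythm, 0 to 1 members in 6AN passed an unadjusted p of 0.01 by harmonic regression with a time label left out, the 1 being without 44 hr. The causes were not tested. The comparison of conditions was matched by time label throughout and was described, not tested, because the tables were normalized separately, so no fit with a block was added. EIF2AK3, the lowest member, lies nearest the limit that depth sets.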
